A study of Homo sapiens with 21 samples.

Results

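The interleukin receptor genes IL7R, IL2RA, IL2RB, IL4R and IL21R were described by the RUNX1 peaks that lay around them in the T-cell leukaemia line Jurkat, an established human cell line. A peak was a member when its summit, the position of strongest enrichment, fell in 1 of 5 windows of hg19. The windows were chromosome 5 from 35830 to 35910 kb for IL7R, chromosome 10 from 6040 to 6130 kb for IL2RA, chromosome 22 from 37510 to 37582 kb for IL2RB, chromosome 16 from 27315 to 27387 kb for IL4R, and chromosome 16 from 27403 to 27474 kb for IL21R. Windows of 100 bp on each side of every summit were merged over all peak lists into regions. The members were 85 regions of 190855 in the genome, of which 24 lay at IL7R, 31 at IL2RA, 10 at IL2RB, 9 at IL4R and 11 at IL21R. Each list had a summit in 18 to 40 of them.

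The series measured RUNX1 binding by chromatin immunoprecipitation and sequencing in untreated Jurkat clones whose RUNX1 products carried HA or TY1 epitope tags. R232fs is a frameshift and Y287X a stop codon, called the truncating genotypes here, and G365R replaces 1 amino acid. In these knock-in clones HA marked the mutant product and TY1 the wild-type product of the same cells. In the wild-type (WT) cells, which the series' design text calls parental, both tags marked wild-type RUNX1. The WT pair thus compares the tags with no mutant product, from 1 list each of unequal length. The WT lists carry a clone-style name, and WT is counted here as 1 clone. Each mutant genotype had 2 clones with 1 HA list and 1 TY1 list each, and WT had 1 of each, which gave 14 lists, while 7 control samples without an antibody had no list analysed here. The knock-in lines were single clones, so a mutant genotype is represented by 2 of them. The p-values rest on the spread between clones of a genotype, pooled over the mutant genotypes. With HA and TY1 paired by clone, it is the spread of HA minus TY1 between clones. The lists hold binding calls and no expression, and RUNX1 itself was not checked at the protein level here.

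The 5 genes encode cytokine-binding chains that T cells and their precursors use to receive growth and differentiation signals. IL7R encodes the alpha chain of the interleukin-7 receptor, on which developing thymocytes and naive T cells depend, and is a known site of activating lesions in T-cell leukaemia. IL2RA (CD25) and IL2RB (CD122) encode the alpha and beta chains of the interleukin-2 receptor, IL4R the alpha chain of the interleukin-4 receptor, and IL21R the interleukin-21 receptor. Apart from the IL2RA chain, which has little signalling role of its own, these chains work through the JAK and STAT pathway, mostly together with the common gamma chain. RUNX1 binds DNA through its Runt domain, which prefers the letters TGTGGT or TGCGGT, and RUNX factors are known regulators of T-cell genes, IL7R among them.

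The 250 bases before the annotated start of each gene are shown for the receptor genes in which these letters occurred, from the RefSeq promoter table on build GRCh38.p14. The table matched 4 of the 5 genes. Capitals mark the match, on either strand, and each sequence runs 5′ to 3′ in the direction of its gene. IL7R is at chr5:35856641-35856890 (plus strand), IL2RA at chr10:6062368-6062617 (minus strand) and IL21R at chr16:27427021-27427270 (plus strand).
IL7R: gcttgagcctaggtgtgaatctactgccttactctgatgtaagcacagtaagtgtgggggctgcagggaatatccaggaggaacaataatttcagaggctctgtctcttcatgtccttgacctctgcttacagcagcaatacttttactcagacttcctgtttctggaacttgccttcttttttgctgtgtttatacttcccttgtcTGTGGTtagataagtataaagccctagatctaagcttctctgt
IL2RA: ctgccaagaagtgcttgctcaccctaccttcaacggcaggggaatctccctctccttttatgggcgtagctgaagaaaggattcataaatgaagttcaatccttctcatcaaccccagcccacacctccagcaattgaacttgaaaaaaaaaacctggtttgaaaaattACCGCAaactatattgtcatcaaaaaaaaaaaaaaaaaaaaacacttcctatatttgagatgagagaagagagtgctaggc
IL21R: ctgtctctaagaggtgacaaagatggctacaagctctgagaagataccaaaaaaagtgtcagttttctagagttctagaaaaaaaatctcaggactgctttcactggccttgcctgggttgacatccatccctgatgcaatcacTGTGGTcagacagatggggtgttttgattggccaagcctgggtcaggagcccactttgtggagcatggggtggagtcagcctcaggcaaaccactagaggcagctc
IL7R held TGTGGT with its first letter 43 bases before the start. IL2RA held TGCGGT on the opposite strand, which reads ACCGCA in the gene's direction, 81 bases before the start. IL21R held TGTGGT 106 bases before the start, and the IL4R window held neither motif. Of 35116 promoters of the table, 10.98% held TGTGGT on either strand, 5.84% held TGCGGT and 16.3% held one or both, so that a match is a common feature of a window of this length. The peaks are on hg19 and were not placed on these sequences.

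The lists differed in ways that touch every comparison below. List length ran from 30563 to 86433 peaks (median 58259, autosomes and X). The fold enrichment at a summit is the authors' value, the signal over a local background. Summit pileup (overlapping fragments) and local background (fragments per base) were solved from each peak's fold and p. The highest pileup of a list was 385 to 480 in the 6 G365R and WT lists and 2904 or more in the 8 truncating lists, so the genotypes also form 2 kinds of list, and the genotype and the kind of list cannot be told apart. By highest pileup, the HA and TY1 lists of a clone are of the same kind. They still differ in length, with 30609 HA and 57378 TY1 peaks in the first G365R clone. The pileups of the first G365R TY1 list and of the WT TY1 list had been scaled, unlike those of their HA lists.

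Most members were found in few lists. A summit lay in all 14 lists at 6 of 85 members (5.92% of all regions), 4 of them at IL2RA and 2 at IL21R, and in a single list at 30 (42.3% of all regions). Members found only in G365R or WT lists numbered 24 (13.2% of all regions), and 19 of these were at IL7R. Members found only in truncating lists numbered 34 (52.4% of all regions): 14 at IL2RA, 8 at IL2RB, 7 at IL4R, 5 at IL21R and 0 at IL7R. IL7R thus held most of the members found only in G365R or WT lists and none of those found only in truncating lists.

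**Figure D1:**
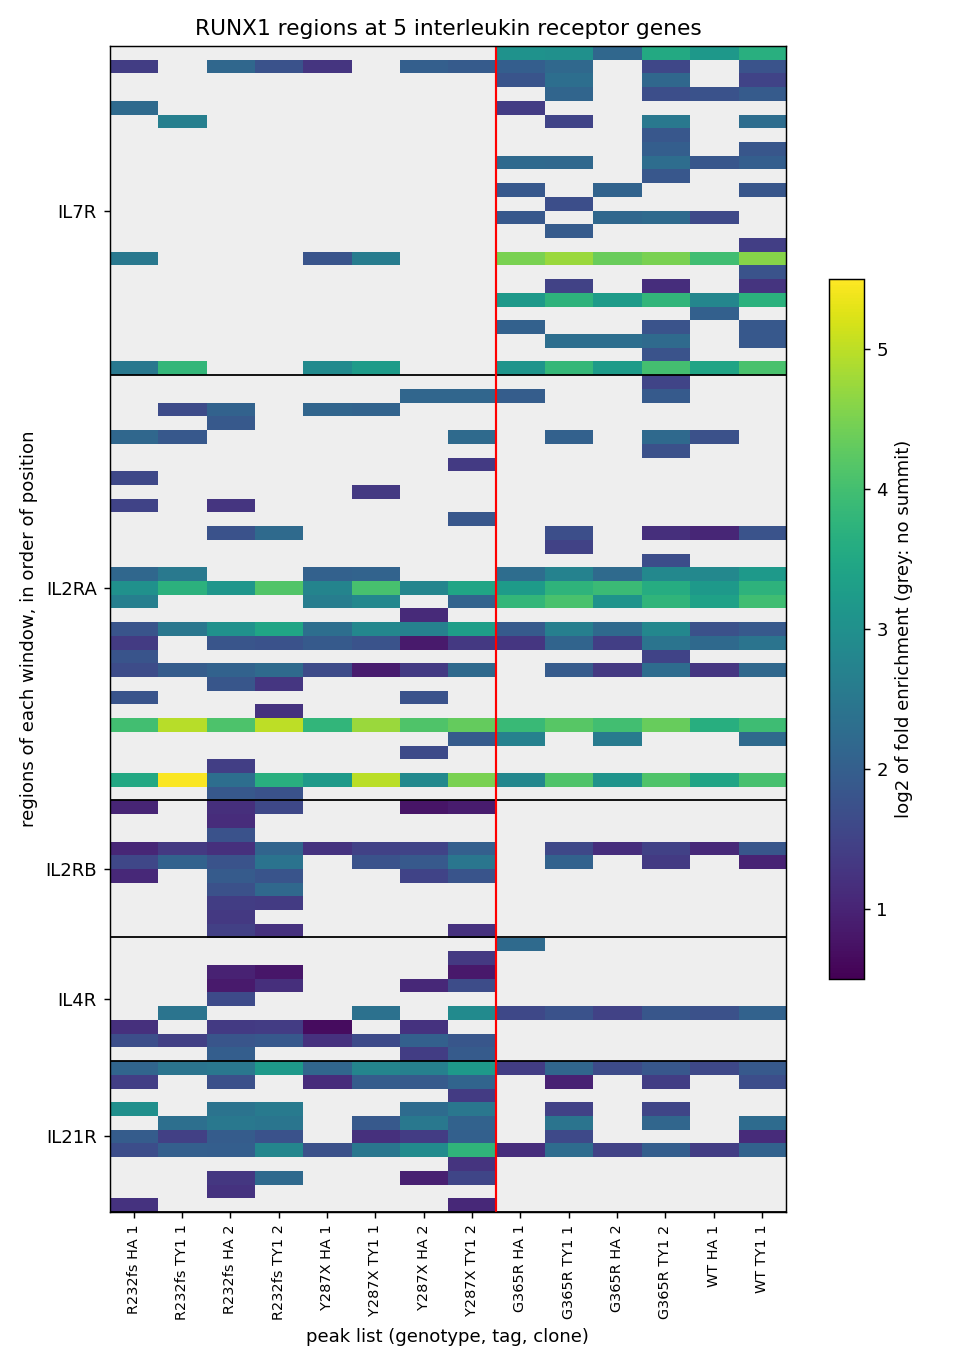
Fold enrichment (colour, log2 scale) of the 85 regions (y axis, by gene and in order of position) in the 14 peak lists (x axis), with grey where a list had no summit. The red line separates the 8 truncating from the 6 G365R and WT lists, and the IL7R block is filled mainly to its right.

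IL7R had the clearest contrast between genotypes. Peaks in its window numbered 4, 2, 1 and 1 in the R232fs lists (HA and TY1 of clone 1, then of clone 2) and 3, 2, 1 and 1 in the Y287X lists. They numbered 11, 13, 7 and 17 in the G365R lists and 8 and 16 in the WT lists. The 8 truncating lists, with 1.88 ± 1.13 peaks (SD, n = 8), did not overlap the 6 G365R and WT lists, with 12 ± 4.10 (SD, n = 6). The mutant G365R product had as many peaks there as wild-type RUNX1 under HA in WT cells (11 and 7 against 8), and the wild-type product in truncating clones had as few as the mutant product.

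Scaling did not remove this separation. Per 10000 peaks of a list the truncating lists had 0.116 to 0.578 in the window and the others 2.13 to 3.59. In the strongest 30563 peaks of each list they had 0 to 2 and 5 to 11, and among peaks of fold 5 or more 0 to 2 and 3 to 5. Of 26955 stretches of 80 kb with a peak, 0.701% had more peaks in every G365R and WT list than in any truncating list, and IL7R was the 1 window of the 5 with such a separation in number of peaks. At the lengths of the other windows the share was 0.684% (IL2RA), 0.591% (IL2RB and IL4R) and 0.681% (IL21R). These shares are for peaks in full lists. They include stretches with a peak in as few as 1 list, which cannot separate in this way. Shares for scaled counts, equally long lists or peaks of fold 5 or more were not counted, so those gaps are descriptions. The test of these counts over clones was not run, since the window was chosen with earlier results known.

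**Figure D2:**
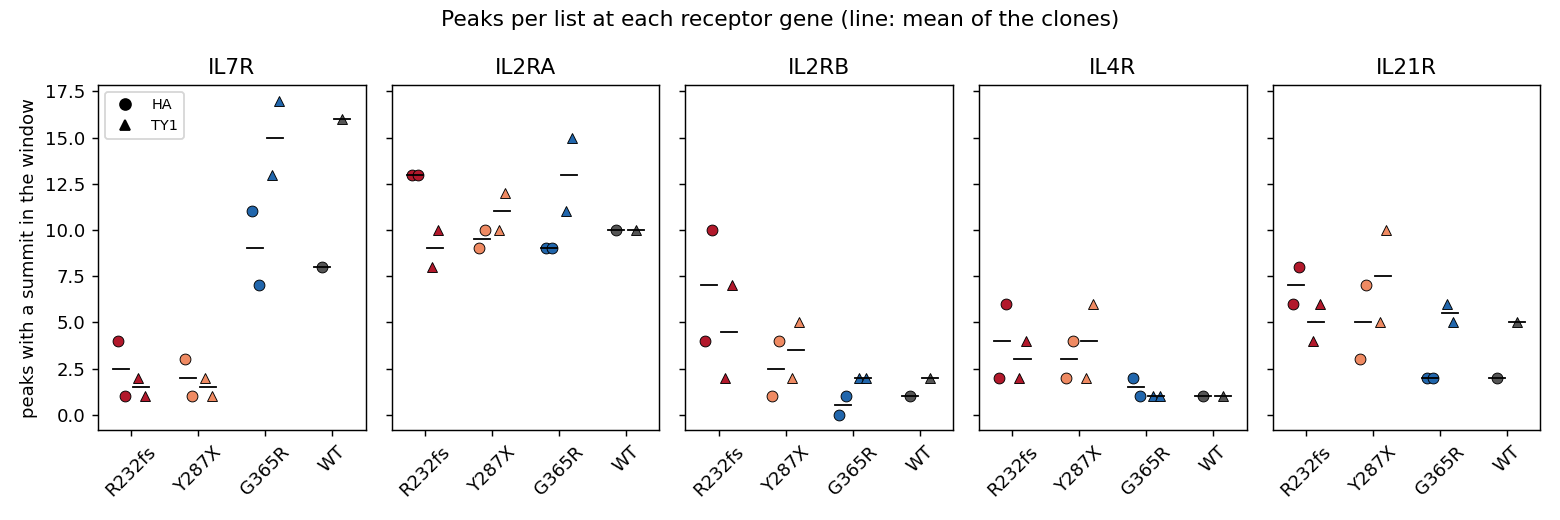
Number of peaks with a summit in each receptor window (y axis) by genotype (x axis), each circle an HA list and each triangle a TY1 list, with a line at the mean of a genotype and tag. At IL7R all G365R and WT points (7 to 17) lie above all truncating points (1 to 4), and the other 4 genes show no such gap.

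The strongest IL7R region, site A (chr5:35884606-35884924), carried the same contrast in its height. Its fold was 22.6 (HA) and 27.05 (TY1) in the first G365R clone, 20.6 and 22.4 in the second, and 15.6 and 24.1 in WT, above 96.6% or more of the peaks in each of those lists. In the truncating lists it was 5.69 in R232fs HA 1, 3.496 in Y287X HA 1 and 6.09 in Y287X TY1 1, and the other 5 had no summit there. The lowest G365R or WT value was thus above the highest truncating value. How many of all regions have such a gap was not counted. The local background was 3.22 to 4.80 in G365R and WT and 3.43 to 3.92 in truncating lists, while the pileup was 86 to 139 and 15 to 27.

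Site B (chr5:35908467-35908796) separated clones within the truncating genotypes. It had a fold of 5.69 (HA) and 14.1 (TY1) in the first R232fs clone and of 7.43 and 9.48 in the first Y287X clone. No summit was called in either list of the second R232fs or the second Y287X clone. In G365R the folds were 8.54 and 14.3 in the first clone and 9.48 and 16.1 in the second, and in WT 10.7 and 16.7. Where it was present the truncating values overlapped the others, and the TY1 value was above the HA value in all 5 clones. Site B was 1 of 3 members in both lists of R232fs clone 1 and neither of clone 2 (3.99% of regions found in R232fs). With site A it was among 4 such members in Y287X (2.64%).

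Sites C and D had summits in all 6 G365R and WT lists and in none of the 8 truncating lists. They were 2 of 14 members in all 6 of the former, beside 2.69% of all such regions. Site C (chr5:35899967-35900198) had the highest mean percentile of the window, taken over the lists with a summit only. Its folds were 9.23 and 13.3 in the first G365R clone, 9.48 and 13.9 in the second and 6.98 and 12.9 in WT (HA, then TY1). Site D (chr5:35830738-35830995), at the edge of the window, had folds of 8.31, 8.02, 4.503, 11.6, 8.95 and 12.6 in the same order. Both lay in low background, at 3.22 to 4.80 fragments per base. Counting whole peaks that overlap a region, or equally long lists, also gave 2 such regions, and summit windows of 250 bp gave 3.

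The remaining IL7R regions were weaker, each with a highest fold of at most 6.27, a value of R232fs TY1 1. In all, 19 of the 24 IL7R regions were found in G365R or WT lists only (13.2% of all regions), and 0 in truncating lists only (52.4%). Of the 24 regions, 8 were in a single list (42.3% of all regions). The 1 region found in a larger share of the truncating lists (chr5:35845508-35846077) had folds of 2.40 to 4.51 in 6 truncating lists and 2.97 to 4.56 in 4 of the others. Unlike site B, it was present in the second R232fs and second Y287X clones, with folds of 4.51, 3.40, 4.04 and 3.83. It was chosen for mention after its values were seen.

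**Figure D3:**
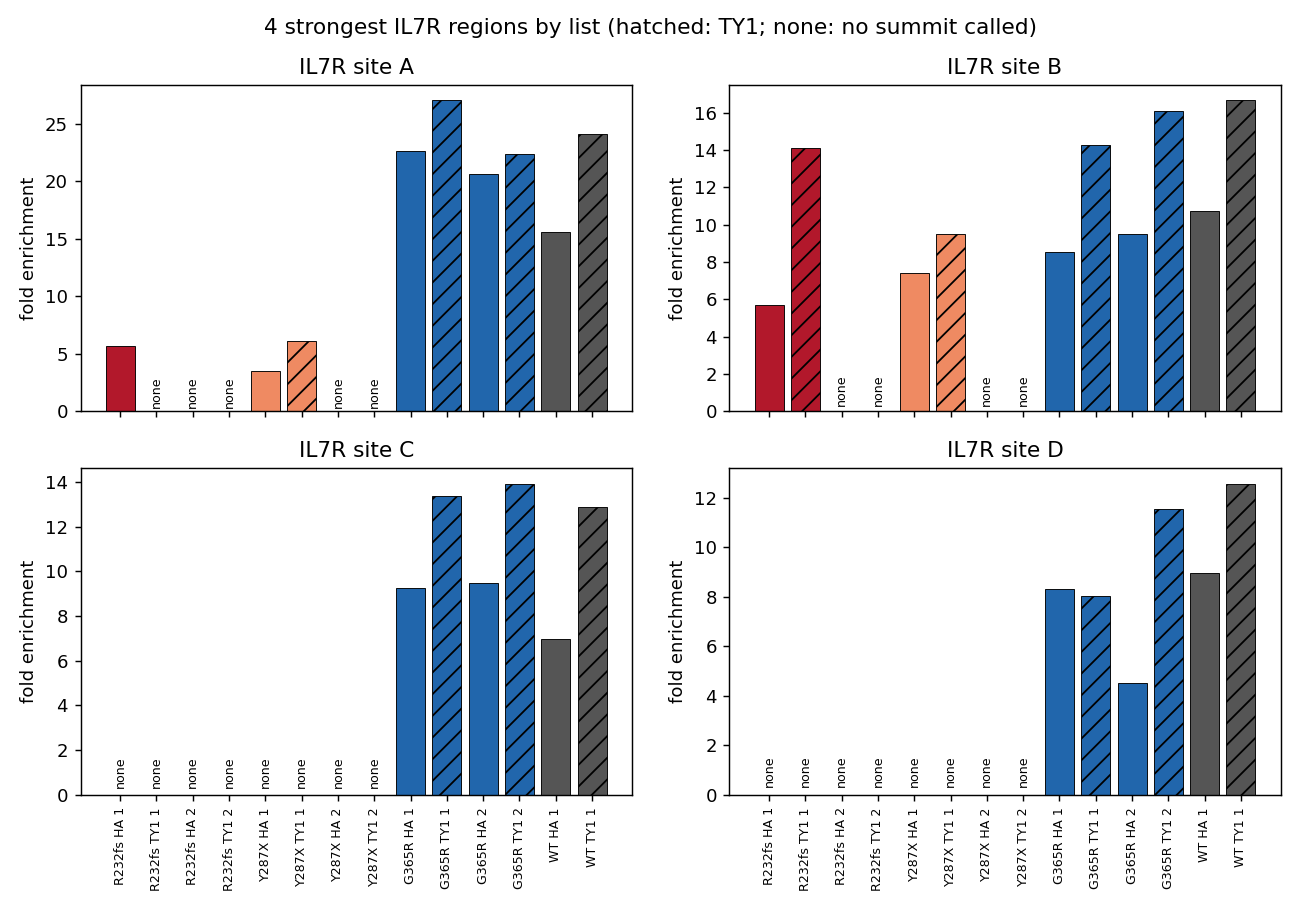
Fold enrichment (y axis, from 0) in each list (x axis) at the 4 strongest IL7R regions, with solid bars for HA and hatched bars for TY1. Site A is 15.6 to 27.05 in G365R and WT and at most 6.09 in truncating lists, site B is missing from the second truncating clones, and sites C and D have no summit in any truncating list.

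By tag, IL7R had fewer HA than TY1 peaks in the full G365R and WT lists, where the HA lists were shorter, and not in the truncating clones. HA minus TY1 was -1.5 ± 4.37 peaks (SD) over the 6 mutant clones, and 0.2 without the second G365R clone, which had 7 HA and 17 TY1 peaks. In the strongest 30563 peaks of each list the deficit was absent. There the G365R clones had 11 HA and 5 TY1 peaks and 7 and 5, and WT had 5 and 5. In the full WT lists, 10 IL7R regions had a summit in TY1 alone and 2 in HA alone, beside 43.1% and 9.67% of all regions found in WT. In G365R, 3 IL7R regions were specific to TY1. Of these, site E (chr5:35856682-35856947) was 1 of 9 members of all 5 genes with a summit in the pair of TY1 lists and no HA list (18.9% of regions found in G365R), with folds of 2.85 and 5.70. WT TY1 also had it, at 4.86, and WT HA did not, and its fold was 6.27 in R232fs TY1 1. By whole peaks that overlap it, R232fs HA 1 and G365R HA 1 were covered too.

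IL2RA kept 4 of its regions in every list, among them the 3 of highest mean percentile. The window held 8 to 13 peaks in truncating lists, with 10.6 ± 1.85 (SD, n = 8), and 9 to 15 in G365R and WT lists, with 10.7 ± 2.25 (SD, n = 6), which overlapped. Scaled by list length, the mean of the G365R and WT lists was higher, at 2.43 ± 0.53 per 10000 peaks (SD) against 1.69 ± 0.22 in truncating lists. In the strongest 30563 peaks of each list the truncating lists had 4 to 7 and the others 8 to 9, without overlap. Per 10000 peaks they had 1.47 to 2.01 and 1.68 to 2.94, and among peaks of fold 5 or more 3 to 5 and 5 to 7, with overlap in both. How many stretches of this length separate in equally long lists was not counted, so the gap there is a description. Of its 31 regions, 4 were in all 14 lists, 13 in 1 list, and 5 reached a fold of 10 or more. HA minus TY1 over the 6 mutant clones was -0.5 ± 3.94 peaks (SD).

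Site A of IL2RA (chr10:6110449-6110728) was the strongest by mean percentile, above 94.4% or more of the peaks of each list. Its HA and TY1 folds were 15.9 and 31.1 in R232fs clone 1, 17.1 and 32.2 in R232fs clone 2, 13.9 and 26.7 in Y287X clone 1 and 17.5 and 19.8 in Y287X clone 2. They were 14.7 and 18.3 in G365R clone 1, 15.8 and 20.2 in G365R clone 2, and 12.5 and 15.4 in WT. HA was below TY1 in 7 of 7 clones, as it was at most regions found in all lists (61.0% to 95.6% of them by clone). Ranks within a list remove such a shift of a whole list, and no contrast was called at site A.

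Site B of IL2RA (chr10:6125748-6126049) had the lowest HA rank relative to TY1, in R232fs and in Y287X, of the 6 members found in all lists. In R232fs the fold was 11.5 (HA) and 44.6 (TY1) in clone 1 and 4.93 and 12.6 in clone 2. In Y287X it was 9.39 and 31.6 in clone 1 and 7.31 and 22.5 in clone 2. The ratio of HA to TY1 was 0.258, 0.390, 0.297 and 0.324 in these 4 clones, beside 0.913, 0.775, 0.793 and 0.734 at the median region found in all lists. At most 1.57% of such regions had as low a ratio in the same clone.

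In G365R, site B had folds of 7.03 (HA) and 17.4 (TY1) in clone 1 and 8.39 and 17.4 in clone 2, ratios of 0.405 and 0.483. In WT, with no mutant product, it had 10.7 and 16.5, a ratio of 0.649, and 31.6% of regions found in all lists had a ratio as low. The HA signal was below TY1 in every clone, with the smallest gap in WT. WT is a single pair of lists, so its spread is unknown.

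These differences were compared as ranks of the fold within each list, turned into normal scores (1 unit is 1 SD of a list's scores), at the 11291 regions found in all lists. With the clones paired, limma gave HA minus TY1 of -1.23 ± 0.12 (SE) in R232fs (adjusted p = 0.00462) and -1.03 ± 0.12 in Y287X (adjusted p = 0.0268). Lower HA ranks were called at 11.3% of all regions in R232fs and at 0.549% in Y287X, and site B was the 1 of 6 members called in each. In G365R the difference was -0.49 ± 0.12 (limma, clones paired, adjusted p = 0.0612; 1.6% of regions called lower). The truncating difference exceeded that of G365R by -0.64 ± 0.15 (limma, clones paired, adjusted p = 0.0252; 8.53% called lower).

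These calls were made with the clones paired and not without. Without the clone term limma gave adjusted p-values of 0.389 for R232fs, 0.9997 for Y287X and G365R and 0.816 for the difference, with 0 of 11291 regions called (0.0%) in each contrast, although 1368, 463, 590 and 1177 regions had an unadjusted p under 0.05. With clones paired, the R232fs call held without any 1 clone (limma adjusted p of 0.00981 to 0.0262). The Y287X call was lost without Y287X clone 1 (limma adjusted p = 0.156), Y287X clone 2 (0.115), G365R clone 1 (0.0605) or G365R clone 2 (0.061). The difference was lost without Y287X clone 1 (limma adjusted p = 0.0687), G365R clone 1 (0.125) or G365R clone 2 (0.142).

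Site C of IL2RA (chr10:6086096-6086420) differed between genotypes under HA. The HA folds were 8.13 and 8.77 in R232fs, 6.77 and 6.81 in Y287X, 9.46 and 14.9 in G365R and 9.21 in WT. The TY1 folds were 13.1 and 17.6, 16.5 and 10.8, 13.5 and 12.1, and 13.4 in the same order. Under HA every truncating value was below every G365R and WT value, whereas under TY1 the groups overlapped. How many of all regions separate in this way under HA was not counted. HA exceeded TY1 in 1 of 7 clones, the second of G365R (ratio 1.23).

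The truncating HA rank was below the G365R HA rank by -1.05 ± 0.27 (limma without the clone term, adjusted p = 0.0407; 3.87% of regions called lower), and the TY1 ranks differed by -0.16 (limma, not called; 2.08% called lower). The HA call was lost with a random clone effect (limma adjusted p = 0.0521) and without R232fs clone 2 (0.0597), Y287X clone 2 (0.0762), G365R clone 1 (0.227) or G365R clone 2 (0.35). The difference in HA minus TY1 between truncating and G365R clones was -0.89 ± 0.23 (limma, clones paired, adjusted p = 0.035). It was lost without R232fs clone 2 (limma adjusted p = 0.0639), Y287X clone 1 (0.0801), G365R clone 1 (0.0952) or G365R clone 2 (0.226).

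**Figure D4:**
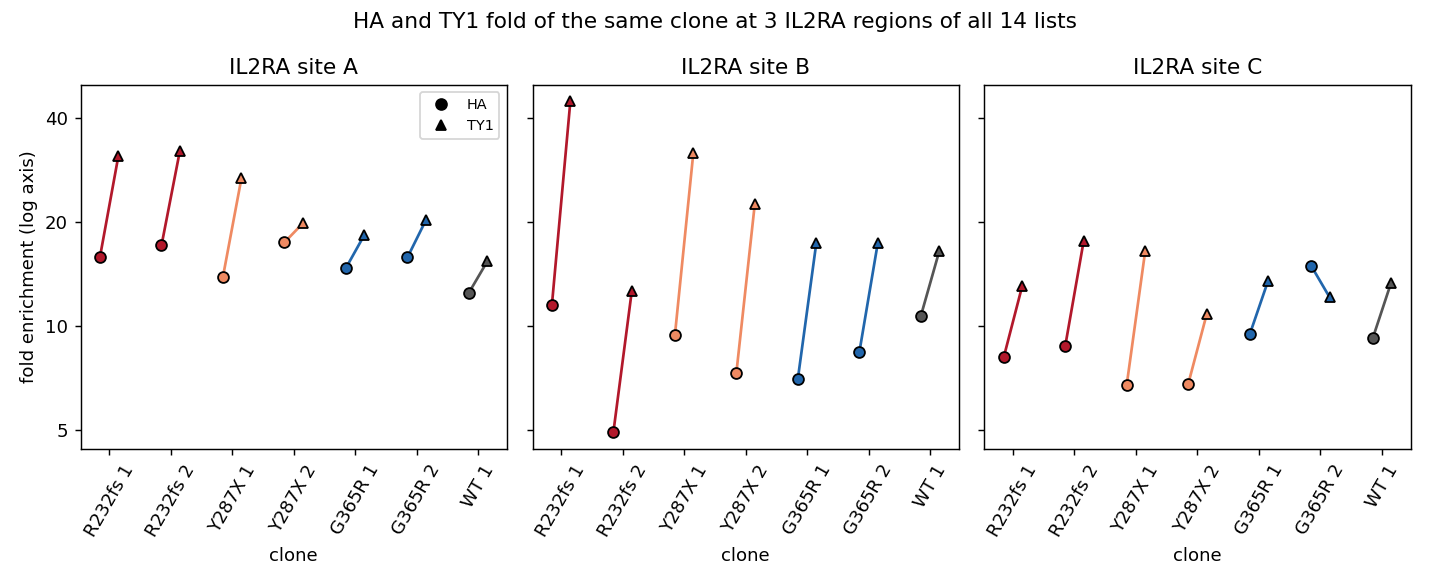
Fold enrichment (y axis, log scale) of HA (circles) and TY1 (triangles) joined within each clone (x axis) at IL2RA sites A, B and C. At site B the gap is widest in the 4 truncating clones (ratios of 0.258 to 0.390) and narrowest in WT (0.649), and at site C the second G365R clone has HA above TY1.

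Site D of IL2RA (chr10:6093019-6093290), also in all lists, stood on a higher background of 20.97 to 44.5 fragments per base. Its fold ran from 3.47 to 10.8 in truncating lists and from 3.33 to 7.02 in the others, which overlapped, and HA was below TY1 in 7 of 7 clones. Site E (chr10:6087297-6087591), close to site C, had no summit in 4 truncating lists, of which R232fs TY1 1 had a whole peak over it. In the other 4 its fold was 4.24 to 6.996, below all 6 G365R and WT values of 8.43 to 16.7. The share of all regions with such a gap was not counted. Site E was chosen for mention after its values were seen. It resembles IL7R sites A and B in being weaker or missing in truncating lists on a low background of 3.43 to 6.58.

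The window also held 3 weaker regions of 10 or more lists, also chosen for mention after their values were seen. The region at chr10:6080116-6080504 had folds of 4.15 to 5.74 in the first R232fs and Y287X clones and 4.65 to 9.22 in the 6 G365R and WT lists, and no summit in the second truncating clones, as at IL7R site B. The regions at chr10:6094617-6094929 and chr10:6104120-6104553 were each in 13 lists, at folds of 1.83 to 5.40 and 1.85 to 4.79, and truncating and other lists overlapped at both.

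Site F (chr10:6111376-6111799) was specific to HA in G365R, with 6.52 and 5.95 in the HA lists and no TY1 summit. It was 1 of 2 members with this pattern (0.579% of regions found in G365R), the other being a weak IL7R region of fold 3.69 and 4.27. Site F was also in Y287X TY1 2 (3.82) and WT TY1 (4.69), so that TY1 detected it elsewhere. Whole peaks covered it in 13 lists, both G365R TY1 lists and WT HA among them, so it was specific to HA by summit position only. In R232fs, 2 members with HA folds of 2.42 to 3.31, at IL2RA and IL21R, were specific to HA (5.91% of regions found in R232fs), and 0 were specific to TY1 (0.401%).

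IL2RB had few and weak peaks. The window held 4, 2, 10 and 7 in R232fs lists, 1, 2, 4 and 5 in Y287X, 0, 2, 1 and 2 in G365R and 1 and 2 in WT. Truncating lists (1 to 10) overlapped the others (0 to 2), and the second R232fs clone accounted for the 2 highest values. No fold exceeded 5.52. Site A (chr22:37545889-37546215) was in 13 lists at 2.05 to 4.35, missing from G365R HA 1, on a background of 31.9 to 62.9 fragments per base.

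IL2RB site B (chr22:37557457-37557831) was the strongest in fold and followed the tag in several clones. It was called in 7 of 7 TY1 lists, with folds of 4.20, 5.30, 3.37, 5.52, 4.22, 2.53 and 2.00 (R232fs, Y287X, G365R, WT). HA lists had it in R232fs (2.96 and 3.43) and in Y287X clone 2 (3.73), and not in Y287X clone 1, G365R or WT. Its absence from the WT HA list means that this pattern also occurred with wild-type RUNX1 under both tags. Site C (chr22:37564379-37564604), the region of highest mean percentile, was in R232fs clone 2 alone, at 3.32 (HA) and 4.58 (TY1).

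IL4R had the fewest regions, with 2, 2, 6 and 4 peaks in R232fs, 2, 2, 4 and 6 in Y287X, 2, 1, 1 and 1 in G365R and 1 in each WT list. Site A (chr16:27383881-27384151) was in all 8 truncating lists and in none of the others, with folds of 3.25, 2.71, 3.51 and 3.69 in R232fs and 2.31, 3.08, 4.07 and 3.58 in Y287X. It was 1 of 9 members in all 8 (1.55% of all such regions). Mutant and wild-type products shared it, the reverse of the list pattern at IL7R sites C and D, at lower fold.

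IL4R site B (chr16:27378730-27379042) was the 1 member specific to TY1 in Y287X (2.0% of regions found in Y287X). Its folds were 5.15 and 7.41 there, 5.38 in R232fs TY1 1, and 2.80 to 4.23 in the 6 G365R and WT lists. Whole peaks covered it in all 14 lists, so the summit moved out of the region in some lists and the site was not without signal. Specific to HA in Y287X was 1 member (1.13% of regions found in Y287X), a neighbour of site B (chr16:27379466-27379684) with folds of 1.58 and 2.36, and whole peaks of both Y287X TY1 lists covered it too. Site C (chr16:27317596-27317796), of the highest mean percentile, was in G365R HA 1 alone at 4.66.

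IL21R lay between these patterns, with peaks in every list. The R232fs lists had 6, 4, 8 and 6, the Y287X lists 3, 5, 7 and 10, the G365R lists 2, 6, 2 and 5, and the WT lists 2 and 5, so the groups overlapped. Site A (chr16:27413370-27413646) was in all lists, with folds of 4.38 to 9.27 in truncating lists and 2.64 to 4.43 in the others. The highest of the others, the first G365R TY1 list, was above the lowest truncating list, R232fs HA 1, and the background was high in both, at 61.3 to 79.3 and 45.2 to 68.5 fragments per base. Site B (chr16:27458079-27458334) had folds of 3.23 to 13.7 and 2.22 to 4.81, which overlapped, with the 2 highest values in the second Y287X clone (7.52 in HA and 13.7 in TY1). limma called no contrast at sites A and B, with or without the clones paired.

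Among the weaker IL21R regions, sites C and D showed how tag and clone combined. Site C (chr16:27437766-27438059) had folds of 7.95 in R232fs HA 1, 5.26 and 5.90 in R232fs clone 2 and 4.73 and 5.60 in Y287X clone 2, and 2.75 and 2.91 in the G365R TY1 lists. Site D (chr16:27438370-27438675), the region of highest mean percentile, was in 7 of 7 TY1 lists at 3.71 to 5.47 and in the HA lists of the second R232fs and Y287X clones only, at 5.63 in both. Whole peaks of R232fs HA 1 covered site D and of R232fs TY1 1 site C, so part of the pattern was the position of the summit between these neighbours. G365R HA and WT HA lists had neither site.

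The 2 clones of a truncating genotype also differed from each other. Members with a summit under each tag of clone 2 and under neither tag of clone 1 numbered 9 of 51 in R232fs (7.99% of regions found in R232fs) and 7 of 43 in Y287X (10.9% of regions found in Y287X). None of these lay at IL7R. In G365R 0 of 48 had a summit under each tag of 1 clone and under neither tag of the other (1.13% and 1.74% of regions found in G365R). In the WT pair, 3 of 37 members were in HA alone (9.67% of regions found in WT) and 15 in TY1 alone (43.1%), so a missing HA summit was common with wild-type RUNX1.

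Over the 6 members tested at all lists, HA ranked below TY1 in 6 of 6 in R232fs, 6 of 6 in Y287X and 3 of 6 in G365R, beside 49.5%, 50.004% and 50.6% of all regions. The median change was -0.45, -0.34 and -0.04 on the score scale, beside 0.01, 0 and 0 over all regions. Members were chosen by gene, not drawn at random, and the 6 share lists, so this stands as a description. Where both lists of a clone had a summit, the HA fold was below the TY1 fold in 79.2% of 24 pairs at IL7R, 83.9% of 56 at IL2RA, 81.2% of 16 at IL2RB, 75.0% of 12 at IL4R and 84.0% of 25 at IL21R, beside 74.5% of all pairs.

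The 5 genes also differed in the background on which their peaks stood. The median local background was 4.54 fragments per base at the 87 IL7R peaks and 5.60 at the 149 IL2RA peaks, against 20.7 at the 43 IL2RB, 32.0 at the 35 IL4R and 20.9 at the 71 IL21R peaks. Folds of 15 or more were found at IL7R and IL2RA, where the highest were 27.05 and 44.6, while the highest at IL2RB, IL4R and IL21R were 5.52, 7.41 and 13.7. The background is the denominator of the fold, so the same pileup gives a smaller fold at these last 3 genes. In the WT TY1 list, IL21R site A had a pileup of 258 fragments with a fold of 3.73. IL7R site A had its highest pileup in the same list, 139, with a fold of 24.1. The highest pileup at IL21R site A was 730, with a fold of 9.27, in R232fs TY1 2, a list of the other kind.

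**Figure D5:**
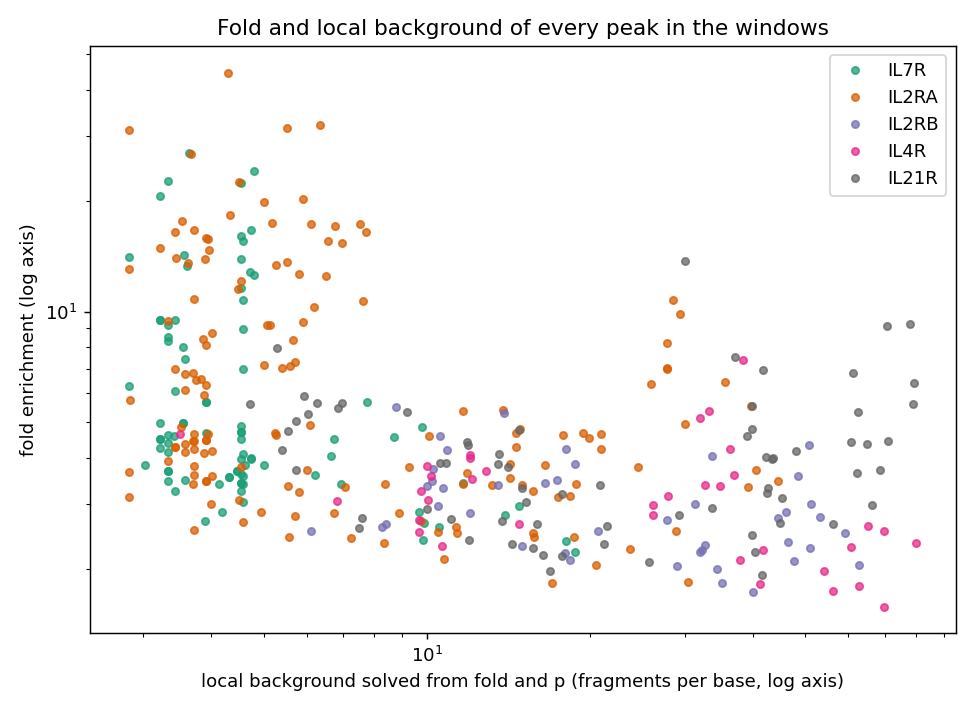
Fold enrichment (y axis, log scale) against the local background (x axis, log scale) of every peak in the 5 windows, 1 point per region and list, coloured by gene. IL7R and IL2RA hold the high folds on low background (medians of 4.54 and 5.60), and IL2RB, IL4R and IL21R peaks lie at higher background (medians of 20.7 to 32.0).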

How the data were processed

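RUNX1 was measured in 14 HA or TY1 libraries, each with 1 narrowPeak list, not pooled. Fixation took 15 min and chromatin was sonicated, per the labels' protocols. The submitters' processing notes name the build hg19 and the tools MACS2 2.2.7.1, Bowtie2 2.2.9 and CASAVA 1.8. How MACS2 was set, and with which control libraries, is not given in the sources used here. The authors deposited for each peak a linear ratio (fold enrichment), the −log10 of its p-value and of its q-value, a score (not used) and the summit's distance from the start. Each deposited list ended at a −log10 q of 1.30 to 1.32, so that a missing peak is one below this threshold and sets no level.

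Windows of 100 bp beside each summit were merged over the lists where they shared 1 bp or more. Pileup and background were solved from fold and −log10 p under the caller's Poisson formula. Depth is not part of a list, and the commonest background, its nearest measure, ran from 2.83 to 4.61 fragments per base. In 12 lists nearly all pileups were whole numbers within 0.05, and in the first G365R TY1 list and WT TY1 list 8.07% and 6.81% were, so their pileups had been scaled.

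Normal scores of the fold ranks were fitted with limma 3.58.1 in R 4.3.3 (trend, 8 groups, 6 residual degrees of freedom). This fit was run on simulated scores that held no clone effect, unlike the lists here. That run therefore does not show how well the fit finds differences in these data. P-values over the 11291 regions were adjusted by Benjamini-Hochberg, with a threshold of 0.05. Single WT lists took the spread of the other groups. HA and TY1 lists of a number share a clone name in 7 of 7 clones (deviations correlate at 0.792 in R232fs, 0.702 in Y287X and 0.503 in G365R), so the fit was repeated with a term for clone, which leaves 3 residual degrees of freedom. Contrasts of HA or TY1 alone lie between clones and were refitted with a random clone effect (estimated correlation 0.735). Python 3.11.15, numpy 2.4.6, pandas 2.3.3, scipy 1.17.1 and matplotlib 3.10.9 did the rest.

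Members and tests were chosen with earlier results of these data known. Regions named were those in all 14 lists, the 1 of highest mean percentile per window, tag-specific regions with a fold of 5 or more, and called regions. Others are marked. A mean percentile leaves out lists without a summit, so a region of few lists can rank highest. Motif, annotation and pathway genes at the hg19 peaks were not analysed here.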

Additional observations from a re-analysis of the deposited data

Results flagged for a closer look

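IL2RA site C was singled out because the HA minus TY1 difference of the truncating clones and that of the G365R clones were not the same. With clones paired it differed by -0.89 on the score scale (limma adjusted p = 0.035). The mean difference was -0.51 in the truncating clones and 0.38 in the G365R clones, and the opposite signs themselves were not tested. IL2RA site B was singled out for the same contrast, at -0.64 (limma, clones paired, adjusted p = 0.0252). Both were lost when either G365R clone was left out. No group of lists here had 4 or more samples, so none was examined for a sample far from the others.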

How the results depend on the processing

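Among the members, each of the 6 contrasts at IL2RA sites B and C kept its direction in every alternative run (12 for HA alone at site C, 20 for each of the others). The call at site C under HA was lost with a random clone effect (adjusted p = 0.0521), with regions of at least 10 lists (0.0843), and without R232fs clone 2, Y287X clone 2, G365R clone 1 or G365R clone 2 (highest adjusted p of 0.35). With clones paired, G365R at site B was called with ranks of −log10 p (adjusted p = 0.0252) and of pileup (0.0178). The truncating minus G365R difference there was not called with clones paired and ranks of −log10 p (0.0675).

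Over all 11291 regions the replicate block raised the limma calls from 0 to 2445 in R232fs, 92 in Y287X, 461 in G365R and 1929 for truncating minus G365R in HA minus TY1. Ranks of −log10 p gave 10, 0, 47 and 282, and of pileup 317, 4, 746 and 1036. The block with ranks of −log10 p gave 2511, 704, 2481 and 3212, and with ranks of pileup 3099, 922, 3083 and 3822. Leaving out 1 clone, with and without the block, gave 0 to 2145, 0 to 279, 0 to 447 and 0 to 1828. Regions of at least 10 lists gave 1 call in G365R. For truncating minus G365R under HA, the 1076 calls became 4472 with ranks of −log10 p, 4586 with pileup, 4106 with regions of at least 10 lists and 1 to 2667 with a clone left out. Under TY1 the 516 calls became 2740, 2045, 221 and 2 to 2639. The cause of these shifts was not tested. Fits with the block and another rank or a clone left out, and the other counts of IL7R presence, were chosen after seeing the data.

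In each alternative run, HA minus TY1 peaks per window moved by less than the SD over clones of the value in full lists. At IL7R it turned to 1.17 in equally long lists and to 0.2 without the second G365R clone, against -1.5. At IL2RA it turned to 0.167 in equally long lists and to 0.6 without the second G365R clone, against -0.5. Depth is unknown, and a weak peak can miss the caller's threshold in a shallow list.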

Other observations

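The common regions whose scores ran most like those of 2 members over the 14 lists lay on other chromosomes. For IL2RA site A these were chr11:76853248-76853555 (Pearson r of 0.899) and chr19:2613995-2614256 (0.865). For IL21R site A they were chr11:10772534-10772820 (0.953) and chr1:156474710-156474950 (0.923). They were the highest of 11291 regions, and all points share the same lists, so these values are a description. HA minus TY1 peaks over the 6 mutant clones were 0 ± 2.0 (SD) at IL2RB, 0.167 ± 1.33 at IL4R and -1.33 ± 2.66 at IL21R.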
